A study of Mus musculus with 135 samples.

Results

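Described here are 58 genes for the factors of cytoplasmic translation initiation and elongation, out of 15181 genes in the deposited count table. They were chosen by name alone, as every symbol that begins with *Eif* or *Eef* followed by a digit. The sex-linked pair *Eif2s3x* and *Eif2s3y*, pseudogene symbols and entries that join several genes under one name were left out. All 58 had at least 1 read in the cells analysed, and 56 of them were expressed in at least 10% of the cells.

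The data were single-cell RNA sequencing counts of bone marrow haematopoietic stem cells (HSCs), sorted as 7AAD- Lin- Sca-1+ c-Kit+ (LSK) CD150+ CD48- from C57BL/6 mice that carry the *Vwf*-eGFP reporter. This transgene drives green fluorescent protein from the control regions of *Vwf*, a gene of platelets and endothelium, and both ages carried it. Young HSCs came from 1 mouse of 2 to 3 months and old HSCs from 1 mouse of 20 to 25 months, with no other treatment. Of 61 young and 74 old cells, 52 and 62 met the read, mitochondrial and gene number limits of the study and were analysed.

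With 1 mouse for each age, cells were not counted as replicates of an age, no test between ages was possible, and every difference below lacks a replicate check. Age, mouse and sex-linked expression moved together and cannot be told apart: 50 of 52 young but 8 of 62 old cells expressed *Xist*, and 0 and 42 expressed *Eif2s3y*. The labels name no capture run, so any split of runs by age cannot be told apart either. Counted reads per cell had a median of 2798990 in young cells (273236 to 5688706) and 2116020 in old cells (276316 to 4086659). Of the transcripts of the sort, *Kit* was expressed in 49 young and 61 old cells, *Ly6a* (Sca-1) in 28 and 43, *Slamf1* (CD150) in only 9 and 15, and *Cd48*, sorted against, in 1 and 0. The stem cell regulator *Hlf* was expressed in 49 and 55. Of genes of other blood cells, 3 of 4 dendritic cell markers were in the table. Their summed CPM had a median of 0.281 in young (0 to 1501) and 376 in old cells (0 to 5530). The MHC class II gene *H2-Aa* was expressed in 8 and 38 cells, *H2-Ab1* in 6 and 39 and *Cd74* in 6 and 37. For 6 of 7 granulocyte and macrophage markers the medians were 185 (0.352 to 1984) and 390.01 (0.758 to 2348), with *Prtn3* in 38 and 59 cells (levels 4.62 and 7.11), *Lyz2* in 43 and 43, *Mpo* in 2 and 1 and *Elane* in 0 and 1. For 6 of 6 megakaryocyte and platelet markers they were 58.2 (0 to 1648) and 195 (0 to 4227). Of 7 erythroid markers 3 were in the table, with a summed CPM of median 0 in both ages and highest cells at 1459 and 15.3. *Hba-a1* was at 0, *Klf1* was expressed in 2 and 0 cells and *Epor* in 4 and 1. The part of these differences in the values below was not tested.

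Translation starts when a small ribosomal subunit loaded with eIF2, GTP and the initiator tRNA is brought to the capped 5′ end of an mRNA by the eIF3 and eIF4 factors, scans to a start codon and is joined by the large subunit. The eEF1 factors then deliver each aminoacyl-tRNA and eEF2 moves the ribosome along. HSCs are known for a low rate of protein synthesis, and the best-known controls of the rate are the kinases that phosphorylate eIF2α, the proteins that bind and block eIF4E, and the kinase that inactivates eEF2.

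Levels are given throughout as log2(CPM + 1), averaged across all analysed cells of an age, where CPM is the count scaled to 1000000 counted reads in the cell. A difference is the old level minus the young level. A difference of 1 corresponds to 2-fold on this scale, which understates the change of low genes. A cell is called expressing where log2(CPM + 1) was above 2.

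Taken as a group, the translation factor genes lay close to the same level in young and old HSCs. The median difference over the 58 genes was -0.07, beside -0.02 over all 15014 genes with a read. Of the 58, 25 lay above 0 and 33 below, where 46.2% of all genes lay above 0. Only *Eif1a* was at least 2-fold higher in old HSCs, where 3.91% of all genes were, and *Eif4a1*, *Eif2a*, *Eef1d* and *Eif2ak4* were at least 2-fold lower, where 4.49% of all genes were. The 5 genes are 8.62% of the group, beside 8.4% of all genes in either direction, so the share is near the background. Among genes expressed in at least 10% of cells, a stricter set of which 56 members are part, the background was 6.24% higher and 6.98% lower. Several genes lay just inside or outside the 2-fold limit, *Eif2ak4* at -1.04, *Eif3f* at -0.96, *Eif4a2* at -0.90, *Eif3m* at 0.99, *Eif5* at 0.98, *Eef2k* at 0.95 and *Eif4e* at 0.93. The count of higher genes therefore moved between 1 and 4 under other scalings, pseudocounts and depths. With TMMwsp scaling 4 genes were higher and 4 lower, where 4.18% and 4.07% of all genes were, and with poscounts scaling 3 and 4, where 3.86% and 4.55% were. It reached 11 in cells that expressed none of 4 cell cycle genes, which are described further on.

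**Figure D1:**
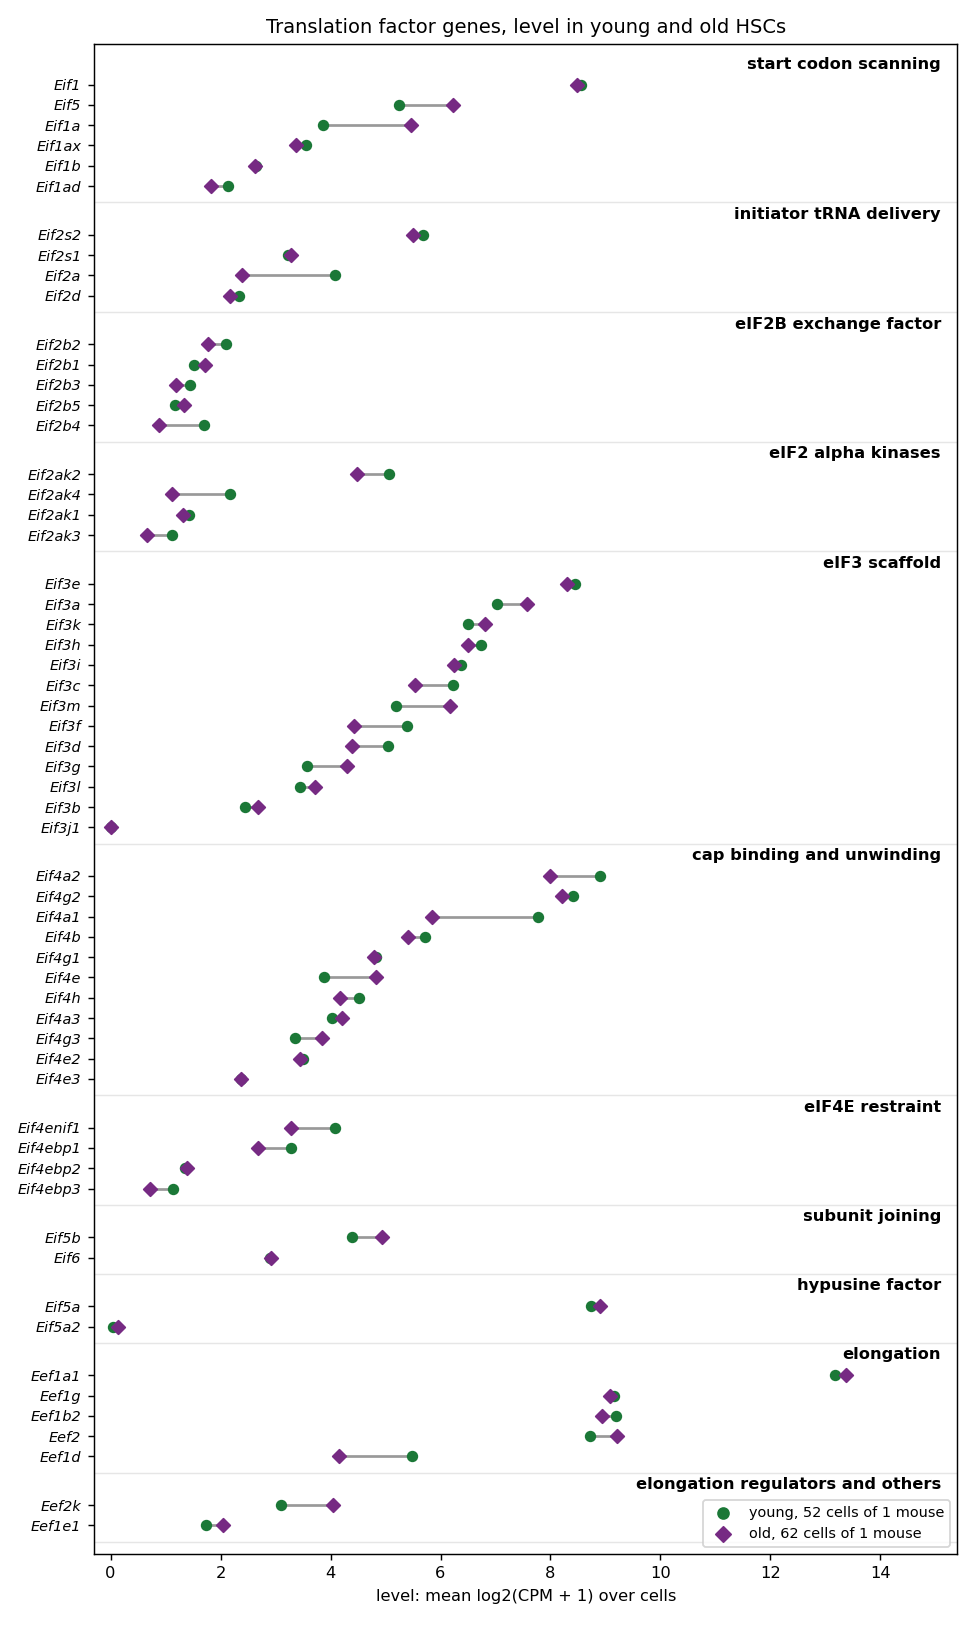
Level of each of the 58 genes in young (circles, 52 cells of 1 mouse) and old (diamonds, 62 cells of 1 mouse) HSCs, as mean log2(CPM + 1) on the horizontal axis, grouped by role and ordered by level within a role. Most circles and diamonds lie close together, and the widest gaps belong to *Eif4a1* (-1.93), *Eif2a* (-1.69) and *Eif1a* (1.60).

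**Figure D2:**
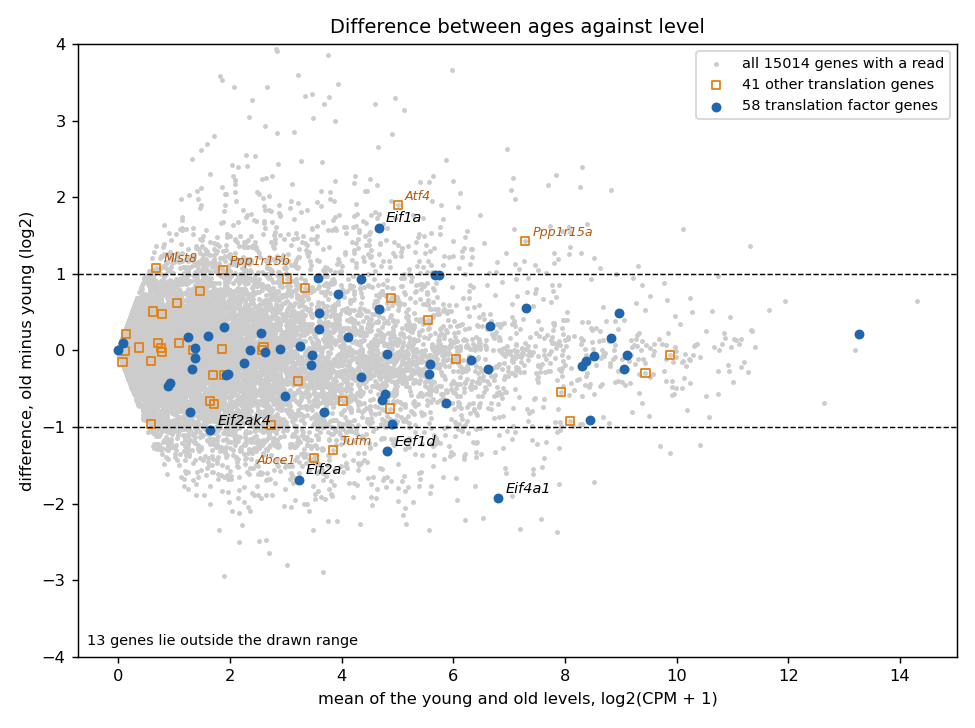
Difference between ages (old minus young, log2) on the vertical axis against the mean of the 2 levels, for all 15014 genes with a read (grey), 41 other genes of translation and its control (open squares) and the 58 translation factor genes (filled circles). Dashed lines mark differences of 1 and -1, past which 5 filled circles lie, and 13 of all genes fall outside the drawn range of -4 to 4.

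The share of all counted reads that fell on these genes was likewise close between the ages. In young cells the summed share had a median of 2.25% (0.929% to 3.15%), and in old cells 2.46% (1.502% to 3.09%). The ranges overlapped almost wholly, though the lowest young cells lay below every old cell. One gene, *Eef1a1*, took 43.9% of the group's reads in young and 46% in old cells, and without it the medians were 1.26% and 1.30%. For comparison, 82 ribosomal protein genes took a median of 7.70% in young and 7.89% in old cells, with a median difference of -0.05 over the genes. The 40 proteasome subunit genes, the other large housekeeping set looked at, took 0.570% and 0.611%, with a median difference of 0.07.

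A single HSC expressed only part of the set. Young cells expressed a median of 35 of the 58 genes (21 to 47) and old cells 33 (24 to 48). With every cell thinned to 250000 reads, for which no cell had to be left out, the medians were 35.5 and 34. The number followed how many genes a cell expressed at all, with Pearson r of 0.819 over the 52 young and 0.80 over the 62 old cells, 2 counts that share a library and its depth. Over the same cells the group's share of reads went with the share on ribosomal protein genes at r of 0.332 in young and 0.324 in old cells, 2 shares of 1 total. Without *Eef1a1* these were 0.0726 and 0.127.

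**Figure D3:**
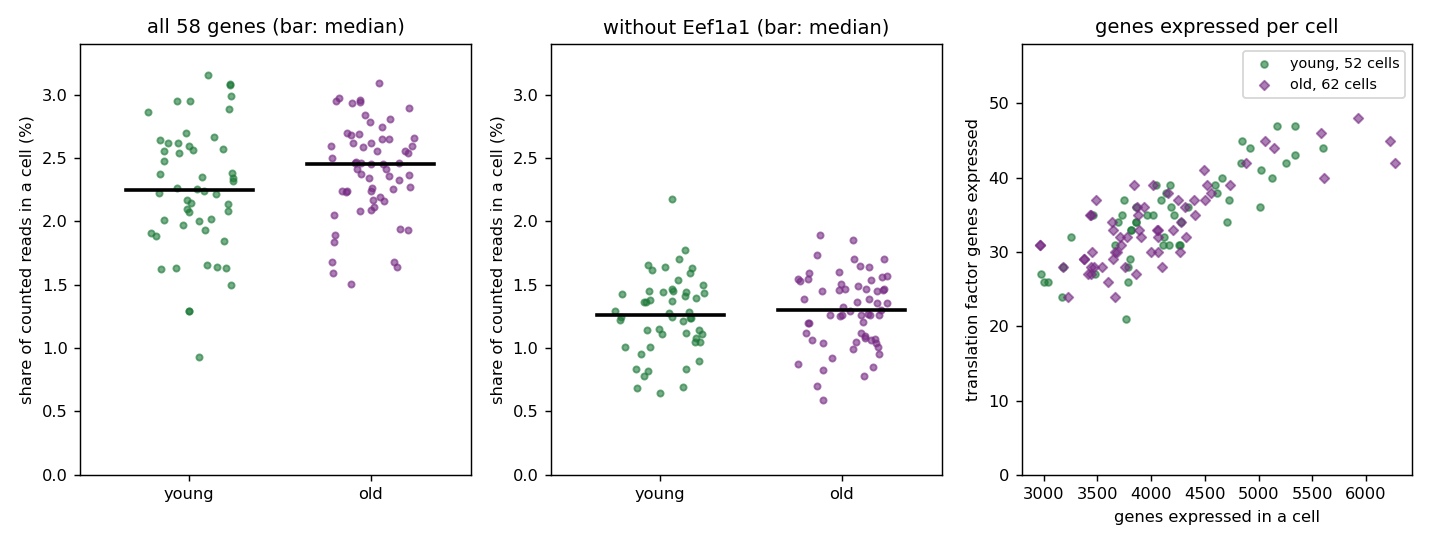
Share of counted reads per cell (%) on all 58 genes (left) and without *Eef1a1* (middle), each point a cell and each bar a median, and the number of the 58 genes expressed against all genes expressed in the cell (right). Medians of 2.25% and 2.46% (all) and of 1.26% and 1.30% (without *Eef1a1*) lie inside widely overlapping clouds, and both ages follow 1 rising band in the right panel.

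The elongation factor genes *Eef1a1*, *Eef1b2*, *Eef1g* and *Eef2* were among the most abundant of the set. Per kilobase of exon, *Eef1a1*, the carrier of aminoacyl-tRNA, had a mean of 5504 CPM per kb in young and 6151 in old cells, far above every other member. Next came *Eif3e* (488 and 476), *Eef1g* (536 and 424), *Eef1b2* (408 and 350), *Eif1* (354 and 356), *Eif5a* (318 and 347) and *Eef2* (237 and 365). The elongation gene *Eef1d* lay far lower (52.5 and 30.2). These values rest on exon lengths from GENCODE. Identical stretches of read length in pseudogenes and other genes covered 39.8% of *Eef1a1* and 43.96% of *Eef1g*, so that reads of those could have been assigned elsewhere.

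*Eef1a1* was also the steadiest from cell to cell. Its lowest, median and highest cell were at 11.25, 13.20 and 14.40 in young and 12.18, 13.43 and 14.13 in old HSCs, and the coefficient of variation of CPM was 0.360 and 0.253. *Eef2*, which translocates the ribosome, ran from 4.37 over a median of 8.78 to 11.60 in young and from 4.01 over 9.89 to 12.12 in old cells. Its level was 0.49 higher in old HSCs, within fully overlapping ranges, and it was expressed in all 114 cells, as were *Eef1a1*, *Eef1b2* and *Eif1*.

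The 3 genes of the eEF1B complex, which recharges eEF1A with GTP, did not differ alike. *Eef1b2* (9.18 young, 8.94 old) and *Eef1g* (9.15 and 9.09) differed by -0.24 and -0.06. *Eef1d*, the exchange subunit found beside *Eef1b2* in the complex, lies on chr15:75894796-75909784 (GRCm38). Its young cells ran from 0 over a median of 6.50 to 10.02 and its old cells from 0 over 4.23 to 9.98, a difference of -1.32 between the means of 5.48 and 4.16. It was expressed in 40 of 52 young (76.9%, exact 95% interval 63.2 to 87.5%) and 39 of 62 old cells (62.9%, 49.7 to 74.8%). The ranges of the 2 ages were the same, and both its frequency and its median among expressing cells (7.58 and 6.88) were lower in old HSCs. All such intervals are on numbers of cells and cover only the sampling of cells within 1 mouse, not differences between mice. As a log2 ratio of mean CPM its difference was -0.80.

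*Eef2k*, the kinase that inactivates eEF2, was at 3.10 in young and 4.05 in old HSCs (0.95), expressed in 34 and 42 cells. Among expressing cells its median was 3.15 in young and 5.89 in old cells. One young cell held 45.4% of all young *Eef2k* reads. *Eef1e1*, a component of the multi-tRNA-synthetase complex, was at 1.74 in young and 2.05 in old HSCs (0.31), expressed in 16 and 18 cells.

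Of the factors that find the start codon, *Eif1a* stood apart with the largest higher value of the set. It encodes an autosomal form of eIF1A, which sits in the A site of the small subunit during scanning, and lies on chromosome 18. Young cells ran from 0 over a median of 1.90 to 10.87, and old cells from 0 over 5.73 to 11.63. The level was 3.87 in young and 5.47 in old HSCs (1.60), and expressing cells numbered 26 of 52 (35.8 to 64.2%) and 43 of 62 (69.4%, 56.3 to 80.4%). Both ages covered nearly the whole range, and the old cells differed mainly in how few were near 0. The difference stayed at or above 1 under every setting tried, between 1.15 and 2.43.

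Its X-linked form *Eif1ax*, for a nearly identical protein, was at 3.56 and 3.37 (-0.19), in 29 cells of each age. Cells often held reads of one form only. Of cells with at least 20 reads on the pair, *Eif1a* took a median of 58.7% in 39 young and 94.1% in 51 old cells, but over summed reads the shares were 70.8% and 75.2%, an increase of 4.47 percentage points. That change was 14.8 with all deposited cells and 16.7 after thinning, but 2.77 in cells of at least 1000000 counted reads and -1.48 in cells without cell cycle genes, so its direction did not hold.

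*Eif5*, which makes eIF2 hydrolyse its GTP, was expressed in 40 young and 52 old cells and was 0.98 higher in old HSCs (5.25 and 6.23). Its cells ran from 0 over 5.68 to 10.72 in young and from 0 over 6.91 to 10.78 in old. *Eif1*, which guards against wrong start codons, was at 8.55 and 8.48, with no cell under 5.28. Its paralog *Eif1b*, whose longest reading frame shares 81.3% of bases with that of *Eif1*, was at 2.64 and 2.62. *Eif1* took 91.04% of the pair's reads in young and 89.5% in old cells. The lowest difference of this role belonged to *Eif1ad* (-0.31), a gene with an eIF1A domain.

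Among the factors that deliver the initiator tRNA, the α and β subunits of eIF2 lay close between the ages. *Eif2s1*, the α subunit and the target of the stress kinases, was at 3.22 and 3.28, and *Eif2s2*, the β subunit, at 5.68 and 5.503. *Eif2a*, a separate protein that can bring initiator tRNA without eIF2 and is not the α subunit, was the second lowest of the set. It lies on chr3:58525821-58557501. Young cells ran from 0 over a median of 2.88 to 10.76 and old cells from 0 over 0.58 to 11.58, with means of 4.08 and 2.39 (-1.69). Expressing cells numbered 29 of 52 (55.8%, 41.3 to 69.5%) and 21 of 62 (33.9%, 22.3 to 47.01%). The single highest cell was an old one and carried 36.4% of all old *Eif2a* reads, and as a log2 ratio of mean CPM the difference was -0.87. *Eif2d*, which can also load tRNA, was at 2.33 and 2.16.

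The 5 subunits of eIF2B, which recharges eIF2 with GTP, were detected in few cells. They were expressed in 9 to 14 young and 9 to 18 old cells each. Their differences ran from -0.80 for *Eif2b4*, the δ subunit, to 0.19 for *Eif2b1*, the α subunit, with a median of -0.24 and none past 2-fold.

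All 4 kinases that phosphorylate eIF2α lay below 0. *Eif2ak2* (PKR), the double-stranded RNA sensor, was the one found in most cells, 47 of 52 young and 52 of 62 old, at 5.05 and 4.49 (-0.57). *Eif2ak4* (GCN2), the sensor of uncharged tRNA, on chr2:118388583-118475234, had a median cell at 0.50 in young and 0 in old HSCs, with highest cells at 8.55 and 8.31. Its level was 2.16 and 1.12 (-1.04), with 20 of 52 (38.5%, 25.3 to 52.98%) and 14 of 62 (22.6%, 12.9 to 34.97%) cells expressing it. One old cell held 60.03% of the old reads of *Eif2ak4*, and the difference was -0.87 at its smallest among the settings tried. *Eif2ak3* (PERK), the sensor of unfolded proteins in the endoplasmic reticulum, was at 1.12 and 0.66 in 10 and 6 cells. *Eif2ak1* (HRI), the haem-regulated kinase, was at 1.43 and 1.33 in 11 and 10 cells. In both of these the median cell was at 0, so that the values rest on few cells. One young cell held 82.8% of the young *Eif2ak3* reads. *Eif2ak1* and *Eif2ak2* lay above 0 without the cells that expressed cell cycle genes (0.73 and 0.11) and as log2 ratios of mean CPM (0.59 and 0.02).

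The eIF3 scaffold, the largest factor, had 13 subunit genes in the table and a median difference of 0.00, with 7 above and 6 below. The ends of its range were *Eif3m* (0.99) and *Eif3f* (-0.96), both subunits of its core. *Eif3m* was expressed in 41 of 52 young (78.8%, 65.3 to 88.9%) and 57 of 62 old cells (91.9%, 82.2 to 97.3%). Its cells ran from 0 over 5.21 to 10.04 in young and from 0 over 6.82 to 10.61 in old. *Eif3g*, an RNA-binding subunit, was 0.74 higher (3.56 and 4.30) and *Eif3a*, the largest subunit, 0.55 higher (7.02 and 7.57). *Eif3c* was 0.69 lower (6.22 and 5.53) and *Eif3d* 0.65 lower (5.04 and 4.39), the latter with 37.1% of its read-length stretches shared with an antisense gene that the counting may not have kept apart. *Eif3e* was at 8.44 and 8.30. *Eif3j1* had 1 read in each age, and 50.7% of its stretches were shared, mostly with *Eif3j2*, a copy with no entry in the table. Where reads of the shared stretches went was not checked. The 0 of 52 and 0 of 62 cells expressing *Eif3j1* (upper limits 6.85% and 5.78%) therefore do not settle whether the cells make eIF3j.

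Among the members with a start window, *Eif3f* was the only one whose annotated start lay in a pyrimidine run, the feature of mRNAs whose translation follows mTORC1. The other 12 members, *Eef1d*, *Eef1g* and *Eif1a* among them, had no window and could not be looked at. A run was counted where the first transcribed base was a C followed by at least 4 more bases C or T on the transcribed strand. Of 46 members with a start window from RefSeq (GRCm38.p6), 1 had it (2.17%), beside 3.01% of 27025 genes. The window of *Eif3f* on the + strand at chr7:108934405-108934434 is shown with the 11-base run in capitals, because it is the one hit.
Eif3f: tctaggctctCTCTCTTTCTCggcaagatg
Annotated starts can miss the base that is used, and no hit says only that the run is not at the annotated base. In cells, *Eif3f* ran from 0 over a median of 6.08 to 9.69 in young and from 0 over 3.77 to 9.77 in old HSCs, and was expressed in 42 of 52 and 44 of 62. Its level was 5.39 and 4.43, but as a log2 ratio of mean CPM the difference was only -0.14.

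The gene with the lowest difference of all 58 was *Eif4a1*, the helicase that unwinds the mRNA next to the cap, on chr11:69666936-69672423. Its lowest, median and highest cell were at 0.80, 8.17 and 11.07 in young and at 0, 6.74 and 9.63 in old HSCs. The level was 7.77 in young and 5.84 in old cells, a difference of -1.93, and 51 of 52 (98.1%, 89.7 to 99.95%) and 53 of 62 (85.5%, 74.2 to 93.1%) cells expressed it. The ranges overlapped, but the old cells held a low tail, with 4 cells at 0 reads against none of the young. No single cell carried the difference, since the top cell held 12.4% of young and 12.9% of old reads. It stayed past 2-fold under every setting, from -2.22 to -1.19, and per kilobase the mean CPM was 216 in young and 94.7 in old cells.

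*Eif4a2*, the other cytoplasmic form of the helicase, ran from 0.90 over a median of 9.12 to 11.87 in young and from 0.62 over 9.28 to 12 in old cells. Its level was 8.90 and 7.996 (-0.90), although the old median cell was the higher of the 2. Mean CPM per kilobase was nearly equal at 282 and 280, and the log2 ratio of mean CPM was -0.01. Of the old cells 58 of 62 expressed it, and of the young 51 of 52.

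The longest reading frames of *Eif4a1* and *Eif4a2*, of 1221 and 1227 bases, shared 77.97% of bases. The stretch around the codons of the DEAD box is shown because this motif names the helicase family. It covers 60 bases, 520 to 579 of the *Eif4a1* and 526 to 585 of the *Eif4a2* frame, from GENCODE transcripts. Other stretches of the pair were not compared with it. Capitals mark the 8 bases that differ, and the DEAD codons take positions 25 to 36.
Eif4a1: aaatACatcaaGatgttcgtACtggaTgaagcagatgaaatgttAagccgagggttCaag
Eif4a2: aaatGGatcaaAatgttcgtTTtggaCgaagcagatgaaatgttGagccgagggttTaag
A 51-base read inside this window crosses several of the differences. Of the read-length stretches of *Eif4a1*, 28.3% were found in other genes, 24.1% in the pseudogene *Eif4a-ps4* alone, and of those of *Eif4a2* 13.4%.

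The balance of the pair differed between the ages. *Eif4a1* took 30.3% of the summed reads of both in young (59015 of 194562) and 16.4% in old cells (20975 of 127820), and the medians over cells were 35.4% and 13.8%. It held over 50% of the reads in 19 of 52 young and 14 of 61 old cells. Old cells lay towards the ends, and none fell between 37.6% and 66.6%. Across the cells of an age the levels of the 2 genes gave a Pearson r of 0.0559 over 52 young and -0.0318 over 62 old cells, each pair of values from 1 library. The old share of summed reads minus the young share was -13.9 percentage points, and between -14.7 and -10.98 under the other settings.

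**Figure D4:**
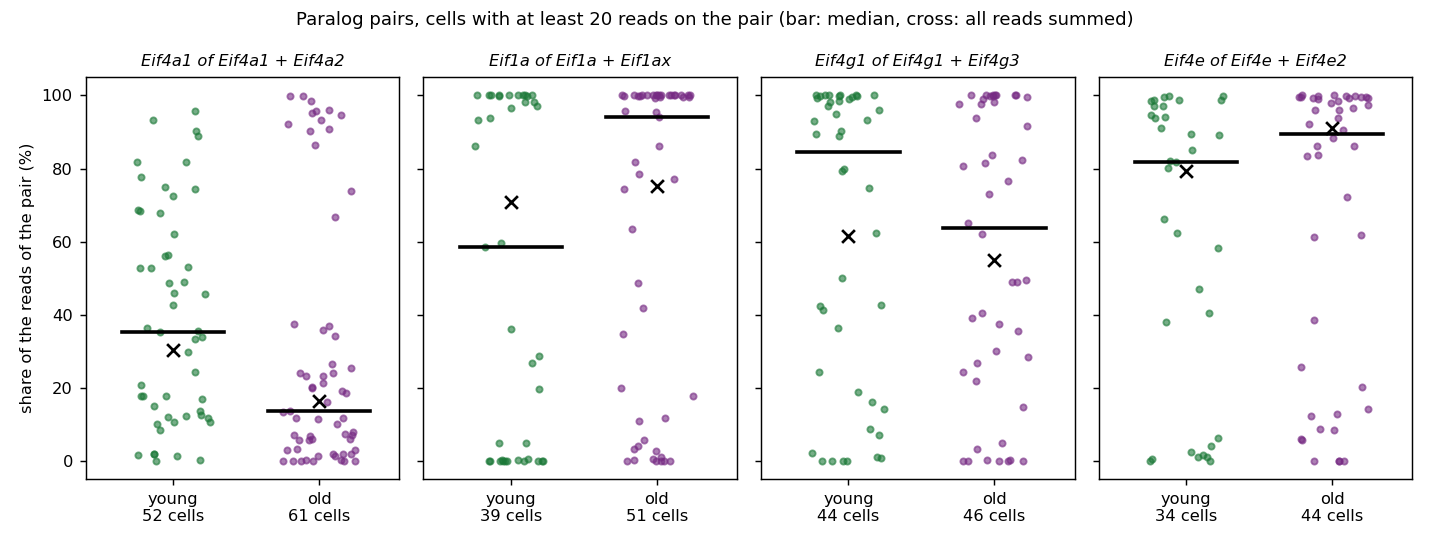
Share (%) of the reads of a paralog pair that fell on the first named gene, for each cell with at least 20 reads on the pair, with the median as a bar and the share over summed reads as a cross. Old cells lie lower for *Eif4a1* (medians 35.4% young, 13.8% old) and higher for *Eif1a* (58.7% and 94.1%), and in each panel cells spread from 0% or close to it to above 95%.

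The cap-binding protein *Eif4e*, on chr3:138526191-138559696, was 0.93 higher in old HSCs (3.89 and 4.82). Cells ran from 0 over 3.43 to 10.24 in young and from 0 over 4.15 to 11.91 in old, and 29 and 39 of them expressed it. Expressing cells differed in level, with medians of 6.72 and 8.53. *Eif4e2*, which binds caps but represses, was at 3.50 and 3.44, and 1 young cell held 36.2% of its young reads. *Eif4e* took 79.2% of the pair's reads in young and 91.1% in old cells, an increase of 11.9 percentage points that was 3.92 with all deposited cells, 2.98 in cells without cell cycle genes and 5.47 without 1 young cell. The third form *Eif4e3* was at 2.37 in both ages.

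The scaffolds differed less. *Eif4g1* was at 4.83 and 4.78 (-0.05) and its paralog *Eif4g3* at 3.35 and 3.85 (0.49), and *Eif4g1* took 61.6% and 54.9% of their reads. In cells without cell cycle genes the same shares were 72.3% and 39.1%. Leaving out 1 young cell moved the change between the ages from -6.71 percentage points to as low as -17.5 or as high as 1.48. *Eif4g2*, which lacks the eIF4E site and serves cap-independent starts, was at 8.41 and 8.21. The helicase cofactors *Eif4b* (5.72 and 5.41) and *Eif4h* (4.52 and 4.17) lay -0.31 and -0.35 apart, and *Eif4a3*, which marks exon junctions rather than unwinding at the cap, 0.18.

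The proteins that hold eIF4E back had a median difference of -0.51 over 4 genes. *Eif4ebp1*, an mTORC1 target, was at 3.29 and 2.69 (-0.60) with 26 expressing cells in each age. Its direction did not hold, since in cells without cell cycle genes it was at 2.26 and 2.87 (0.61). *Eif4ebp2* was at 1.35 and 1.38, where 1 young cell held 79.3% of the young reads. *Eif4ebp3* was at 1.14 and 0.72 in 11 and 10 cells, with 65.4% of its stretches shared with an overlapping gene. *Eif4enif1*, which carries eIF4E into the nucleus and to P-bodies, had the lowest value of the role at -0.80 (4.08 and 3.28), with 31 and 27 expressing cells. *Eif4ebp1* took 68.3% of the summed reads of *Eif4ebp1* and *Eif4ebp2* in young and 78.3% in old cells, an order that rested on 1 young cell. Without it the young share was 91.1%, in cells without cell cycle genes the shares were 88.3% and 81.0%, and the medians over cells were 100% and 98.0%.

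*Eif5b*, the GTPase that joins the subunits, was 0.54 higher in old HSCs (4.40 and 4.93, 39 and 50 cells), and *Eif6*, which keeps free large subunits apart, was level (2.89 and 2.91). *Eif5a*, the hypusine-bearing factor that helps ribosomes through difficult peptide bonds, was at 8.74 and 8.90, in 52 of 52 and 59 of 62 cells. Its paralog *Eif5a2* was expressed in 0 young and 1 old cell.

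**Figure D5:**
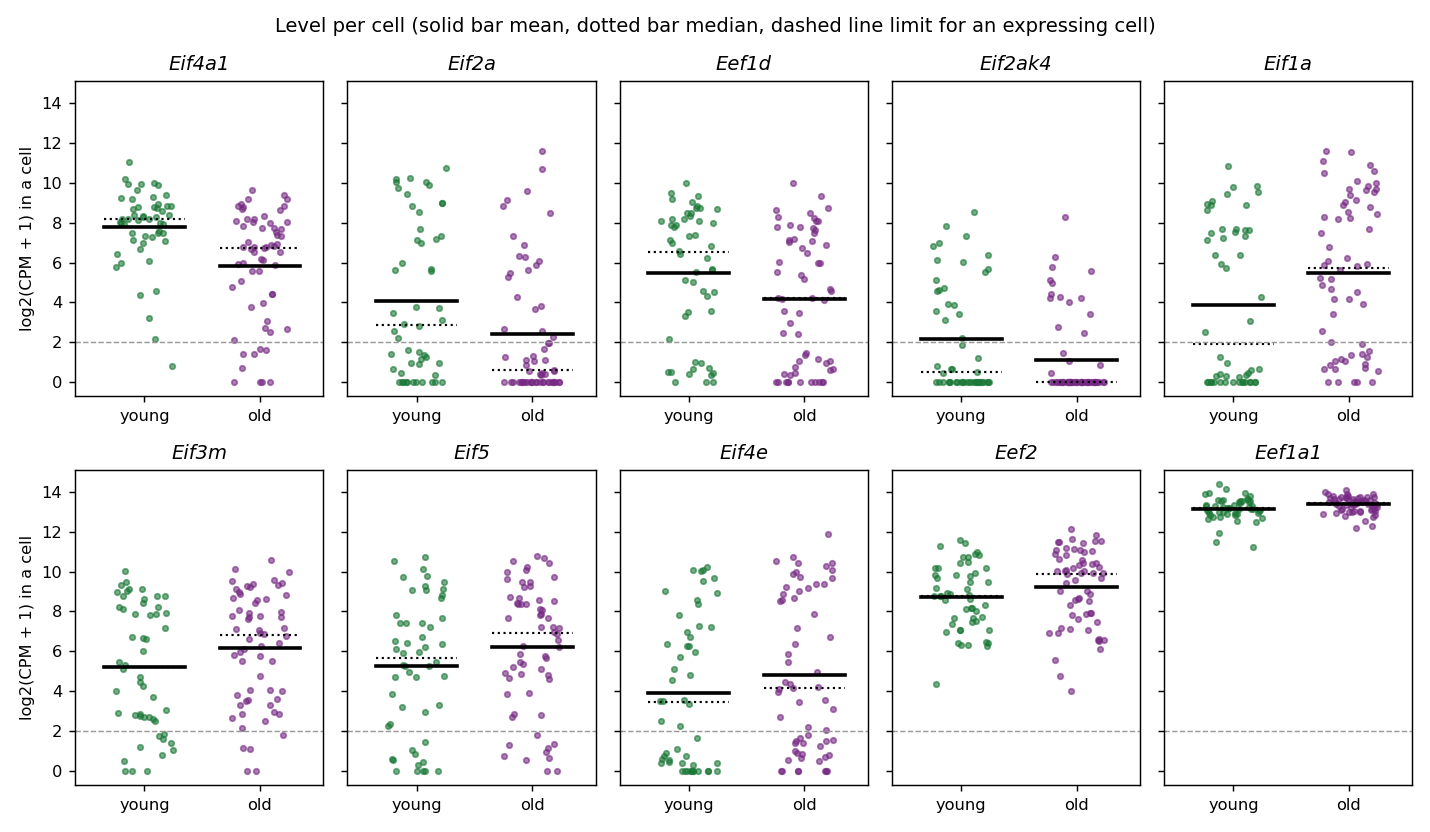
log2(CPM + 1) in each of 52 young and 62 old cells for 10 of the genes, with the mean as a solid bar, the median as a dotted bar and the limit for an expressing cell as a dashed line. For *Eif4a1*, *Eif2a*, *Eef1d* and *Eif2ak4* the old mean lies lower (by 1.93, 1.69, 1.32 and 1.04), for *Eif1a* higher (1.60), always with overlapping cells, while *Eef1a1* stays in a narrow band between 11.25 and 14.40.

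Several of these values differed between cells with and without expression of cell cycle genes. The 4 genes were *Cdk1*, *Ccnb1*, *Ccna2* and *Cdc25c*, and 27 young and 13 old cells expressed 1 or more of them. Within the young mouse, cells with such a gene expressed a median of 38 translation factor genes and cells without 32, while they expressed 4614 and 3862 genes in all. Of the 58 genes, 18 were at least 2-fold higher in the young cells with cycle genes, where 13.1% of all genes were, and 2 were lower, where 2.51% were. Shares of all genes, here and in the next paragraph, cover genes with a read, however low. None was computed among genes expressed in at least 10% of cells, of which 56 members are part. The widest gaps were those of *Eif2s1* (4.56 with, 1.78 without), *Eif3i* (7.48 and 5.17), *Eif1ax* (4.63 and 2.40) and *Eif3d* (6.04 and 3.97), and *Eif5a* was at 9.58 and 7.84, all named after their values were seen. In the old mouse 7 were higher and 12 lower in the 13 cells with cycle genes, where 7.85% and 5% of all genes were, and *Eif5a* had the other order (7.52 with, 9.27 without). Only 13 cells stand on one side of that comparison, and the part of the number of genes per cell was not tested.

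Between the ages, the 25 young and 49 old cells without any of the 4 cycle genes gave another count of higher genes. In them 11 members were at least 2-fold higher in old HSCs, where 7.75% of all genes were, among them *Eif3m* (1.74), *Eif2s1* (1.68), *Eif1a* (1.49), *Eif4e* (1.48), *Eif5a* (1.43) and *Eif3a* (1.35). The count of lower members was 5, where 4.29% of all genes were, namely *Eif4a1* (-1.94), *Eif2ak4* (-1.43), *Eif4a2* (-1.14), *Eef1d* (-1.02) and *Eif2a* (-1.02). The median of the 58 was 0.09 there, with 33 above 0, beside 0.03 over all genes.

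Of other genes of translation and its control, all 41 on the list were in the table. Their median difference was 0.00, with 21 above and 20 below 0, and 4 were at least 2-fold higher and 2 lower (14.6% in all, beside 8.4% of all genes). Of the 41, 36 were expressed in at least 10% of cells. Among all genes expressed so widely the share was 13.2%, so that of the list is near the background. The 7 genes of the integrated stress response, which follows eIF2α phosphorylation, lay above 0, *Nck1* by only 0.05, with a median of 0.51. *Atf4*, its central transcription factor, was expressed in 35 young and 51 old cells, at 4.06 and 5.96 (1.90). Its median cell was at 3.82 in young and 6.86 in old HSCs, and its highest at 9.57 and 10.66. *Ppp1r15a* (GADD34), which brings the phosphatase back to eIF2α, was at 6.58 and 8.003 (1.43) in 45 and 60 cells, and its constitutive relative *Ppp1r15b* at 1.35 and 2.39 (1.04). *Ddit3* (0.48), *Trib3* (0.51) and *Atf5* (0.21) were expressed in at most 10 cells of an age, *Atf5* in 0 and 2. For *Nck1* the median cell was lower in old HSCs (1.84 young, 0.88 old), and so was the frequency (48.1% and 41.9%). The transcripts of the 4 kinases upstream lay below 0, 2 of them only under some settings, as given above.

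Around mTORC1, *Mlst8*, a subunit of the complex, was expressed in 1 young and 12 old cells (1.08), and *Rptor*, the subunit that binds its targets, in 11 young and 1 old cell (-0.96). *Mtor* itself was at 1.04 and 1.14. *Pdcd4*, an inhibitor of the eIF4A helicase, was at 8.56 and 7.64 (-0.92), in 51 and 61 cells. *Abce1*, which splits ribosomes after termination, was 1.41 lower in old HSCs (4.21 and 2.81), and *Tufm*, the mitochondrial counterpart of eEF1A, 1.30 lower (4.50 and 3.20). All 3 genes of reinitiation, *Denr* (-0.76), *Mcts1* (-0.98) and *Mcts2* (-0.15), lay below 0. *Pabpc1*, the poly(A)-binding protein that meets eIF4G, was expressed in all cells, at 9.91 and 9.85. The 2 genes of eIF2γ that the name rule left out followed the sex-linked split, *Eif2s3x* at 4.83 and 3.32 in 40 and 33 cells and *Eif2s3y* at 0 and 5.04.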

How the data were processed

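The authors read 51 bp single-end reads of SMARTer and Nextera XT libraries from C1-captured cells, mapped them to mm10 with TopHat2 2.0.10 and at most 1 alignment a read, and deposited counts per RefSeq gene and cell from rpkmforgenes, without normalization. Use of strand by the counting is not given in the sources used here. All deposited columns were mapped to a cell label (0 left out). The cell limits of the study (at least 500000 mapped reads, at most 10% mitochondrial reads, at least 3000 genes at 1 RPKM) were applied to its quality table, which served for nothing else, and left out 21 of 135 cells.

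CPM was computed over each cell's counted reads (Python 3.11.15, numpy 2.4.6, pandas 2.3.3) and log2 taken after adding 1. Genes at a difference of at least 1 were called, and no p-value was computed. Shares carry exact Clopper-Pearson 95% intervals from scipy 1.17.1. Thinning drew 250000 reads from each cell. The script was tested on simulated counts. Named with full values were the 10 highest genes, those past 2-fold (at least 10 by size), paralog pairs, the eIF2α kinases, the eIF4E-binding proteins and the ends of each role. Genes of the other lists were named from the lists as a whole. Members and lists were chosen with earlier results of these data known. All 58 symbols matched RefSeq, 46 had a start window, and exon lengths, shared 51-base stretches and reading frames came from GENCODE M21.

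The alternatives were all deposited cells, cells of at least 1000000 counted reads, cells without cell cycle genes, a pseudocount of 0.1 CPM, log2 ratios of mean CPM, TMMwsp factors (edgeR 4.0.16), poscounts factors (DESeq2 1.42.0), thinning, a filter at 10% of cells and a limit of 1 read for expressing cells. Leaving out each cell in turn from the paralog shares was added after seeing the data. A value was held the same within 1.5 times, within 10 percentage points for paralog shares, and within its interval for a share of cells.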

Additional observations from a re-analysis of the deposited data

How the results depend on the processing

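No paired analysis was possible because each age is 1 mouse and the cell labels carry no replicate numbers shared between the ages, and for the same reason no replicate could be left out. The median difference of the 58 genes stayed between -0.10 and 0.09, and the median of the 41 other genes, the summed share of reads and the shares of *Eif4a1*, *Eif1*, *Eif4e* and *Eif5a* in their pairs stayed within the stated limits under every alternative run. None of the 5 genes past 2-fold changed direction. The number of genes at least 2-fold higher in old HSCs was 1 in the analysed cells, where 3.91% of all genes were. The shares of all genes stand in brackets below. The number was 3 with all deposited cells (3.53%), 3 in cells of at least 1000000 counted reads (4.10%) and 3 after thinning (3.98%). In cells without cell cycle genes it was 11 (7.75%), with a pseudocount of 0.1 CPM 4 (8.21%). As log2 ratios of mean CPM it was 3 (19.8%), with TMMwsp factors 4 (4.18%) and with poscounts factors 3 (3.86%). The number lower, 4 (4.49%), was 7 with the pseudocount of 0.1 CPM (10.9%), 6 in deep cells (5.10%) and 6 as log2 ratios (20.4%). It was 5 after thinning (4.79%), 5 without cycle genes (4.29%) and 3 with all cells (3.90%). With TMMwsp and poscounts factors it stayed at 4 (4.07% and 4.55%). As log2 ratios *Eif4a1* and *Eif2ak4* were joined by *Eif2ak3*, *Eif2b4*, *Eif2d* and *Eif4ebp3* in place of *Eif2a* and *Eef1d*. *Eif3f*, the one gene found with a pyrimidine start among those with a start window, went from -0.96 to -0.14 as a log2 ratio of mean CPM. The change in the *Eif1a* share of its pair, 4.47 percentage points, was 14.8 with all cells, 16.7 after thinning, 2.77 in deep cells and -1.48 without cycle genes. Without cells that expressed cell cycle genes, the change in the *Eif4ebp1* share turned from 10.1 to -7.31 points and that in the *Eif4g1* share went from -6.71 to -33.2. Leaving out each analysed cell in turn, a check chosen after seeing the data, took the *Eif4ebp1* change to -12.8 and the *Eif4g1* change to -17.5, each by 1 young cell, and kept the direction for *Eif4a1*, *Eif4e* and *Eif1a*. The causes were not tested. Of single named genes, 9 moved past the limit without cells with cycle genes, 11 as log2 ratios of mean CPM and 3 with the smaller pseudocount. At 1 mouse an age, cells give precision on those 2 mice only. The reads carry no molecular identifiers, so that read counts are not counts of molecules, and 40 shares of expressing cells moved when 1 read was enough.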
